A study of Mus musculus with 2 samples.

Results

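The regions described here are 608 chromatin loops of the mouse cerebral cortex that were well supported after sham surgery and had no counterpart in the loop list made after experimental stroke. They were selected on measured values. A loop was taken when it lay on an autosome, was joined by 21 or more paired-end tags (PETs, read pairs that link both anchors) in the sham list, and had no MCAO loop with both anchor midpoints within 2 anchor widths, using the wider loop at each side. They are 608 of 2452 autosomal sham loops with 21 or more PETs, and of 14779 sham loops in all. Because the PETs and the missing partner chose the loops, their absence from the MCAO list is the rule and not a result.

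Sham mice had the full surgical procedure without occlusion of the middle cerebral artery. In the other group, MCAO, an intraluminal filament blocked that artery for 1 h and was then withdrawn. All mice were killed after 6 h of recovery or reperfusion, and frozen cortex of the operated side, from the territory of the artery, was used for Hi-C. The labels name 3 cortices per group and give neither strain, age nor sex. With a single loop list for each group, the values below lack replicates, and no test compared the groups. Cortex is a mixture of neurons, glia, vessels and blood cells, and a loop present in fewer cells cannot be told apart from a loop that is weaker in each cell. Loop lists hold no RNA, so the tissue label could not be set against marker expression.

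Hi-C joins DNA segments that lie close together in the nucleus and sequences the joined ends, and a loop is a pair of segments (anchors) that meet more often than their surroundings do. Many loops form when cohesin extrudes the chromatin fibre until it meets the insulator protein CTCF bound at both anchors, and others link promoters with distal regulatory elements. In neurons such contacts are known at synaptic and receptor genes, many of which lie in wide, gene-poor stretches of the genome.

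Depth was 34974213 PETs in sham and 40550536 in MCAO, so 21 sham PETs correspond to 24.3 PETs at the MCAO depth. Both lists begin at 10 PETs, and other limits of the loop caller are not stated, so an MCAO contact that is not listed may have had fewer PETs or may have missed another limit. A share of 24.8% of the sham loops with 21 or more PETs met the rule, against 61.9% of the autosomal sham loops of any PET number. The same rule turned round took 996 of 2978 autosomal MCAO loops with 21 or more PETs, or 33.4%. At the edges of the rule, 81 of 217 loops with exactly 21 PETs had no partner, and 136 of 302 loops with 20 PETs, just outside, had none. On the distance scale, 149 loops lay between 1.5 and 2 anchor widths from an MCAO loop and were left out, and 108 lay between 2 and 2.5 widths and were taken. The intervals printed are 95% intervals of counting error alone. They take loops, anchors, genes or promoter windows as independent, although an anchor of 110 of the 608 sham-only loops overlapped that of another. They hold no spread between animals, and nothing shows that PETs are independent molecules.

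Promoter sequence was examined in the anchors, since many anchors of cortical loops lie at promoters. RefSeq promoter windows of 300 bases (250 before to 50 after a start, assembly GRCm38.p6) lay whole within an anchor of 306 of 572 sham-only loops on the chromosomes that the promoter table covers (53.5%, interval 49.3 to 57.6), and within both anchors of 102. A core of the CTCF motif was searched on both strands as CCNNNAGGGGGC, CCNNNAGGTGGC, CCNNNAGATGGC or CCNNNAGAGGGC. It was found in 29 of 696 promoter windows in anchors of the sham-only loops (4.17%, interval 2.81 to 5.93), in 109 of 2630 windows in anchors of sham loops with an MCAO partner (4.14%, interval 3.42 to 4.98) and in 3.37% of 31396 autosomal windows. The following stretches of 60 bases, written 5′ to 3′ on the strand of the gene, are shown because they carry such a core, in capitals, within an anchor of a sham-only loop. They come from Utp25, a ribosome biogenesis factor (chr1:193130301-193130360, minus strand), Lrrc8d, a volume-regulated anion channel subunit (chr5:105700755-105700814, plus strand), Chrm4, the muscarinic M4 receptor (chr2:91921986-91922045, plus strand), Dgkz, diacylglycerol kinase zeta (chr2:91963722-91963781, minus strand), Crbn, a substrate receptor of an E3 ubiquitin ligase (chr6:106800128-106800187, minus strand), and the uncharacterised gene beside Nr4a2 (chr2:57124666-57124725, minus strand).
Utp25: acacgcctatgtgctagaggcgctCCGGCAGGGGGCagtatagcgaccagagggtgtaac
Lrrc8d: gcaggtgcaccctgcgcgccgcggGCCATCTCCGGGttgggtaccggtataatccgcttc
Chrm4: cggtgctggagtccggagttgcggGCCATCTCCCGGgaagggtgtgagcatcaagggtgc
Dgkz: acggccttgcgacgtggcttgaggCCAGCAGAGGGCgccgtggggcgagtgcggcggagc
Crbn: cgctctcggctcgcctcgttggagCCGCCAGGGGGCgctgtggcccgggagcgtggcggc
Nr4a2 neighbour: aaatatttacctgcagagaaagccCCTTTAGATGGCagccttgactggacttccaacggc
A match is a description of the letters and not a binding site. The Utp25 window lies in the right anchor of a 355 kb loop with Hhat, which had 43 PETs in sham. The Lrrc8d window lies in a 185 kb loop of 35 PETs that ends at Zfp326. The Chrm4 and Dgkz windows share the left anchor of a 465 kb loop of 31 PETs whose right anchor holds Cry2, a circadian repressor. The Crbn loop had 22 PETs, and the window beside Nr4a2 lies in the anchors of 2 loops with 24 and 22 PETs.

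Whole promoter windows are shown next for 6 genes whose loops are described below, because they stand at loops of different kinds. Gabrb2 (chr11:42420190-42420489, plus strand), Nr2f1 (chr13:78198824-78199123, minus strand) and Nr4a2 (chr2:57123954-57124253, minus strand) each lie in anchors of 2 sham-only loops. B3galt2 (chr1:143640447-143640746, plus strand) stands at the loop farthest from any MCAO loop, Ercc1 (chr7:19344821-19345120, plus strand) at the shortest sham-only loop, and Stx6 (chr1:155158453-155158752, plus strand) at a loop of a gene without a listed MCAO loop at its ends. Capitals mark a GC box (GGGCGG), an E box (CACGTG), an AP-1 site (TGACTCA) or a TATA box (TATAAA) on either strand, and adjoining GC boxes run together.
Gabrb2: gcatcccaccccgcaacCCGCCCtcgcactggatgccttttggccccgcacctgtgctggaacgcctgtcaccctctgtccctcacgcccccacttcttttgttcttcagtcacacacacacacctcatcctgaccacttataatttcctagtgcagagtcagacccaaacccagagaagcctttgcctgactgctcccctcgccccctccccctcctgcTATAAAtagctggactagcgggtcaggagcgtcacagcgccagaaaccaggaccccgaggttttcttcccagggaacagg
Nr2f1: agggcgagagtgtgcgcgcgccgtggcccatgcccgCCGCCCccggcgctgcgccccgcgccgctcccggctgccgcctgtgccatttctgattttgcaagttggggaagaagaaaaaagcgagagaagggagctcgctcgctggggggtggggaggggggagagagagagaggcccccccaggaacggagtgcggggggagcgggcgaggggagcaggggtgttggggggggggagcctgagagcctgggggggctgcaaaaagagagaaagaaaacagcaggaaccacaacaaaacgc
Nr4a2: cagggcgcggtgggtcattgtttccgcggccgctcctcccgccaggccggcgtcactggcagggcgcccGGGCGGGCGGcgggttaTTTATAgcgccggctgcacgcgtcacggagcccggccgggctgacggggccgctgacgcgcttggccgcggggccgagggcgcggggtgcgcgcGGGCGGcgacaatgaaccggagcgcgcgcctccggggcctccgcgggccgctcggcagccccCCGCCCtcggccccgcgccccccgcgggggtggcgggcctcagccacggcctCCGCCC
B3galt2: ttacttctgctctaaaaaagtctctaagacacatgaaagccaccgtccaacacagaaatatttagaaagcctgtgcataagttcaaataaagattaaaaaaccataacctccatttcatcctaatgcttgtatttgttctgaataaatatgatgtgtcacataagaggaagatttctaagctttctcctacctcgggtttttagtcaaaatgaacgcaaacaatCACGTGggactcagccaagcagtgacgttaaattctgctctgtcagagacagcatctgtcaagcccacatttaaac
Ercc1: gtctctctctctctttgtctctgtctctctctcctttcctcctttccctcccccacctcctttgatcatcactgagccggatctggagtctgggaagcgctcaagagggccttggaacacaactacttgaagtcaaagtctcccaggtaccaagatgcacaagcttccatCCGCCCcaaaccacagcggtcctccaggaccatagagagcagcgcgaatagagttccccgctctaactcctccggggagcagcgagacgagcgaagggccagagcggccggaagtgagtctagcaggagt
Stx6: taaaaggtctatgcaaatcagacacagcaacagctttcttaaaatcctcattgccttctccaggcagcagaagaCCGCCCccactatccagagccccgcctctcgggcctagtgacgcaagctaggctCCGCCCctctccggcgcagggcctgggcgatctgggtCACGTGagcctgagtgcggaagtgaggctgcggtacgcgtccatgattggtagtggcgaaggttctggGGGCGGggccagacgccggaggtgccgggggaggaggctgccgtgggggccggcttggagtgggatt
A GC box was found in 39.1% of the 696 windows in anchors of sham-only loops and in 39.4% of the 2630 windows at partnered loops, against 36.0% of all autosomal windows. The E box was found in 6.75%, 7.34% and 7.14% of the same 3 sets, the AP-1 site in 4.89%, 4.87% and 5.26%, and the TATA box in 11.5%, 12.7% and 13.6%. For each of these 5 motifs the intervals of the sham-only and the partnered windows overlapped. The B3galt2 window holds 1 E box and 37.7% G or C bases, whereas the Nr4a2 window holds 81.7% and the GC boxes in capitals.

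The sham-only loops were mid-range contacts with anchors of intermediate width. Their PETs ran from 21 to 77 with a median of 25, with quartiles of 22 and 30. Their span, the distance between anchor midpoints, had a median of 466 kb (interval 445 to 488), against 611 kb (588 to 631) for the 1844 sham loops of the same PET minimum that had an MCAO partner. The median of the 996 MCAO-only loops was 386 kb (364 to 408). The quartiles of the sham-only spans were 346 and 646 kb, and the extremes were 45.6 and 3108 kb. Loops of 300 to 500 kb made up 38.7% of the sham-only loops and 17.7% of the partnered loops. Loops over 1 Mb made up 9.05% and 17.7%.

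Seen the other way, the share of sham loops without a partner varied with span. Of the 226 sham loops of 300 to 400 kb, 110 had no partner (48.7%, interval 42.0 to 55.4). The share was 37.3% (32.1 to 42.7) at 400 to 500 kb and 37.9% (20.7 to 57.7) in the 29 loops under 100 kb, whose intervals overlapped the first, against 18.1% (13.8 to 23.2) at 100 to 200 kb and 13.7% (10.4 to 17.5) at 750 to 1000 kb. The highest share by width stood at a mean anchor width of 40 to 60 kb, where 387 of 969 loops had no partner (39.9%, interval 36.8 to 43.1). Loops with anchors of 20 to 40 kb had none in 12.2% (9.17 to 15.9), and loops with anchors over 80 kb in 7.06% (4.62 to 10.2). The MCAO list, read against sham, gave 54.9% at 300 to 400 kb, 55.2% under 100 kb and 43.8% at widths of 40 to 60 kb. Wider anchors let a partner lie farther off, so width is not independent of the rule, and its part in the differences by span was not tested.

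**Figure D1:**
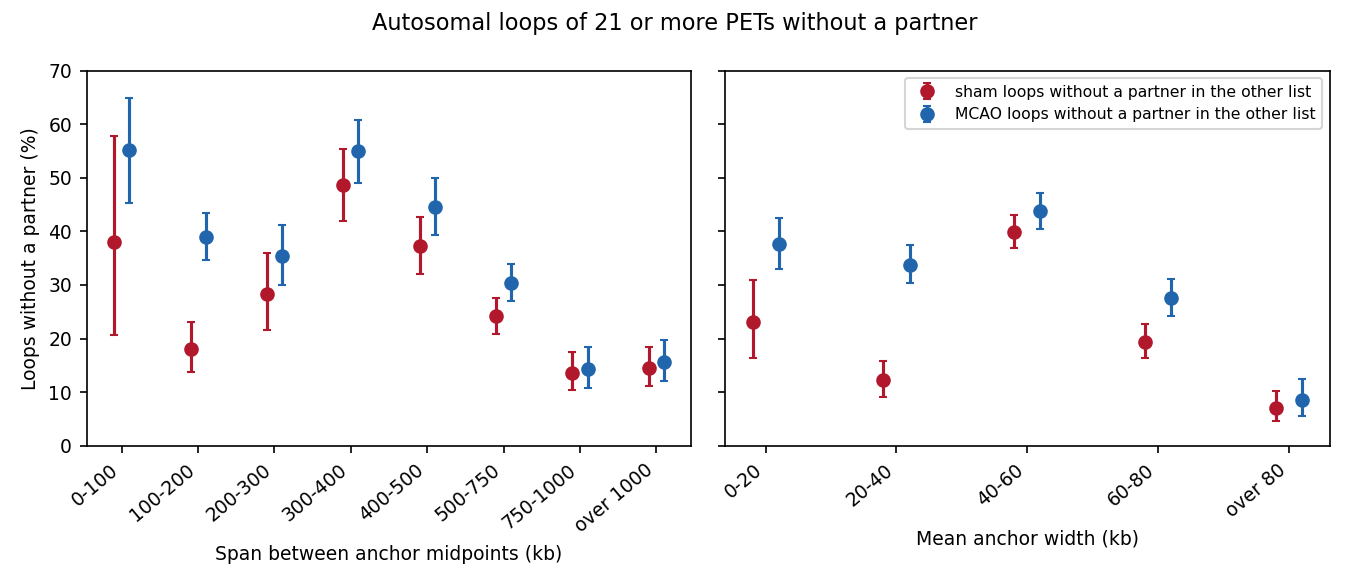
Percentage of autosomal loops of 21 or more PETs without a partner in the other list, by span (left, kb) and mean anchor width (right, kb), for sham (red) and MCAO (blue) loops. Bars are exact 95% binomial intervals. The highest sham points are 48.7% for 300 to 400 kb and 39.9% for anchors of 40 to 60 kb.

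More PETs went with fewer loops lacking a partner. Of the sham loops with 21 or 22 PETs, 39.4% (interval 34.6 to 44.4) had none, against 17.5% (14.4 to 21.1) at 31 to 40 PETs and 4.04% (2.17 to 6.81) at 51 or more, where 13 of 322 loops remained. The median of local read coverage was slightly lower at the sham-only loops. Anchors of the sham-only loops held a median of 0.605 reads per kb and 1000000 PETs (interval 0.598 to 0.615), and those of partnered loops 0.622 (0.616 to 0.627). Where an MCAO anchor overlapped a sham-only anchor, the log2 ratio of read density, MCAO over sham, had a median of -0.06 (interval -0.089 to -0.035). Its quartiles were -0.24 and 0.21 over 764 anchors. At partnered loops this median was -0.01 (interval -0.027 to -0.003) over 3494 anchors. Sham-only anchors without an overlapping MCAO anchor have no such ratio. The intervals of these medians take loops or anchors of 1 library per group as independent, and the small differences were not tested. The share without a partner ran from 18.6% on chromosome 7 to 30.3% on chromosome 18, and the intervals of these extremes overlapped.

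Many anchors of the sham-only loops lay near MCAO anchors in other pairings. Both anchors lay within 2 widths of MCAO anchors that belonged to different loops in 426 cases (70.1%, interval 66.3 to 73.7), and 1 anchor did so in 163 cases (26.8%). In 19 loops (3.13%, interval 1.89 to 4.84) neither did. Both did for 56.5% of all autosomal sham loops without a partner, and for 70.6% of the MCAO-only loops set against sham anchors. How often other positions would meet this distance was not tested. By plain overlap of anchors, both were covered by MCAO anchors in 39.6%, 1 in 46.4% and none in 14.0%, and for partnered loops both were covered in 89.9%. An MCAO loop lay inside the span of 343 sham-only loops (56.4%), and a further sham loop inside 366 (60.2%).

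The nearest MCAO loop, by the larger of the 2 midpoint distances, was a median of 200 kb away (interval 187 to 209), with quartiles of 141 and 281 kb and extremes of 36.9 and 1088 kb. For partnered sham loops this distance was 20.6 kb, a gap that the rule itself makes. The PETs of the nearest MCAO loop were close to those of the MCAO list. They had a median of 13, the same as over all autosomal MCAO loops. The nearest loop was listed at 10 or 11 PETs in 253 cases (41.6%, against 37.7% of all autosomal MCAO loops) and reached 21 PETs in 126 (20.7%, against 19.4%). It was shorter than the sham-only loop in 345 cases (56.7%, interval 52.7 to 60.7), and its span was a median of 0.899 times that of the sham-only loop. The nearest MCAO loop was over 500 kb away for 34 loops.

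**Figure D2:**
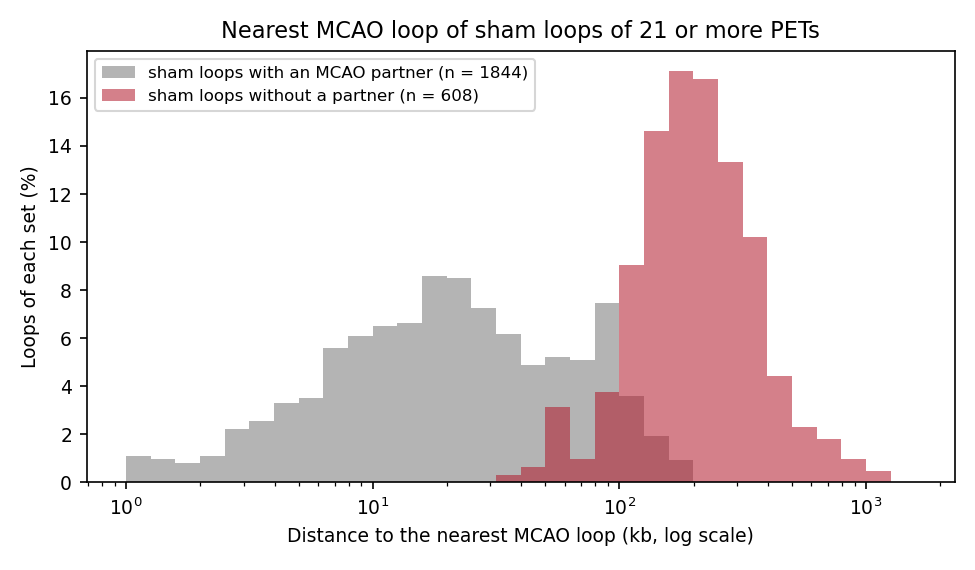
Distance from each autosomal sham loop of 21 or more PETs to the nearest MCAO loop (kb, log scale), as a percentage of the 608 sham-only loops (red) and the 1844 partnered loops (grey). The medians are 200 and 20.6 kb, and the separation follows from the rule.

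Fewer sham-only loops than partnered loops had the end of a protein-coding gene at an anchor. A gene end within 2.5 kb of an anchor was found for 328 of 608 sham-only loops (53.9%, interval 49.9 to 58.0), against 74.6% (72.6 to 76.6) of partnered sham loops and 73.5% (70.6 to 76.2) of MCAO-only loops. Over all 14510 autosomal sham loops, most of which had fewer PETs, the share was 52.5%, close to that of the sham-only loops. Both anchors had one in 21.5% of sham-only, 26.8% of partnered and 26.7% of MCAO-only loops. In 26.6% of the sham-only loops (interval 23.2 to 30.3) no gene overlapped either anchor, against 11.1% of partnered and 15.3% of MCAO-only loops, and 23.7% of all autosomal sham loops. The gap was smaller but kept its direction among loops of like shape. With anchors of 40 to 60 kb, 21 to 30 PETs and spans of 300 to 500 kb, the shares were 52.0% of 175 sham-only loops (interval 44.3 to 59.6), 66.4% of 134 partnered loops (57.8 to 74.3) and 64.7% of 173 MCAO-only loops (57.1 to 71.8), and the first interval overlapped both others.

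The number of protein-coding genes in the 1 Mb around a loop's centre had a median of 3 for the sham-only loops and for all 2452 sham loops of 21 or more PETs, against 4 for partnered and 6 for MCAO-only loops. By gene number the share without a partner was 27.4% in windows of 0 to 2 genes, 23.7% at 3 to 5, 21.8% at 6 to 11 and 23.1% at 12 or more, with overlapping intervals. No gene lay in the window for 18.9% of the sham-only, 10.7% of the partnered and 6.63% of the MCAO-only loops. In windows of 0 to 2 genes, 30.6% of the sham-only loops (interval 25.3 to 36.4) reached a gene end, against 61.9% (58.3 to 65.4) of partnered loops and 27.6% of all autosomal sham loops. Among loops with 3 to 5 genes around them, 58.6% (49.8 to 67.1) of the sham-only and 75.7% (71.4 to 79.7) of the partnered loops did. In windows of 6 to 11 genes they were 77.9% and 85.7%, and in windows of 12 or more 96.2% (89.2 to 99.2) and 92.3%, with overlapping intervals in both. A difference in gene ends was thus seen in windows of up to 5 genes and was not detectable in richer ones at these numbers.

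**Figure D3:**
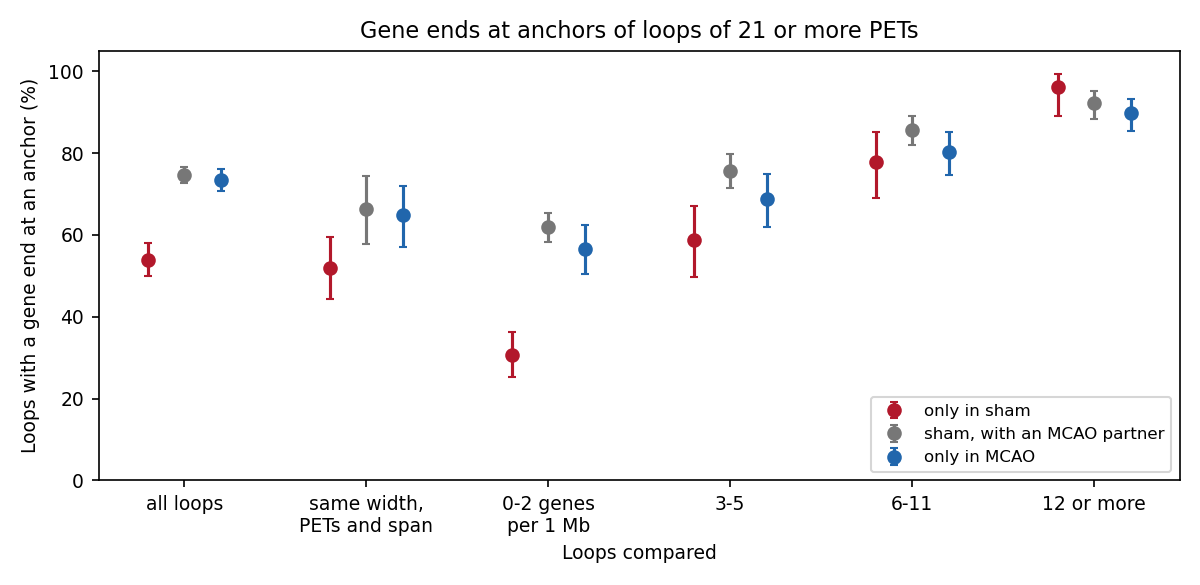
Percentage of loops of 21 or more PETs with a gene end within 2.5 kb of an anchor, for sham-only loops (red), partnered sham loops (grey) and MCAO-only loops (blue), with exact 95% binomial intervals. From left: all loops, loops of like width, PETs and span, and loops by number of genes in the surrounding 1 Mb. The red point lies at 30.6% and the grey at 61.9% in windows of 0 to 2 genes, and their intervals overlap in windows of 6 to 11 and of 12 or more genes.

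In all 676 genes had a sham-only loop at an end, which is 3.27% of 20665 autosomal protein-coding genes and 23.5% of the 2872 with a sham loop of 21 or more PETs. A single such loop was found at 645 genes, 2 at 30 genes and 3 at 1 gene. An MCAO loop of any listed PET number stood at an end of 418 of the 676 genes (61.8%, interval 58.1 to 65.5), and 258 genes had none. Among 2196 genes with partnered sham loops alone 86.1% had one, a difference that the rule favours, and among all autosomal genes 49.6% did. Gene ends were used because the gene table gives no strand, so a loop may stand at the finish of a gene. Of 521 of these genes with a RefSeq promoter window, 337 had it within an anchor of their sham-only loop.

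Receptors for glutamate and GABA, the main excitatory and inhibitory transmitters of the cortex, gave more such genes than any other of the 10 lists. Sham-only loops stood at 7 of 27 listed genes, of which 16 had a sham loop of 21 or more PETs. Over all genes with such a loop the share was 23.5%. Counted as pairs of a gene and such a loop, 9 of 34 were sham-only. Gabrb2, a GABA receptor subunit, had 2, with 44 and 38 PETs in sham, over 622 and 426 kb. The MCAO loops nearest to them had 31 and 11 PETs and lay 254 and 180 kb away. Gabrb2 kept other contacts, with 6 sham and 5 MCAO loops in all, and its strongest MCAO loop had 31 PETs.

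The further receptor genes had their sham-only loops at lower PETs. Grm3, the metabotropic glutamate receptor 3, had 2 with 37 and 23 PETs, the first just past the edge of the rule at 2.03 anchor widths, and 8 sham against 4 MCAO loops at its ends. Grik3 and Grik4, kainate receptor subunits, had 1 each with 30 and 31 PETs. At Grik3 the nearest MCAO loop had 21 PETs and lay 306 kb away, and at Grik4 it had 15 PETs and lay 129 kb away.

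Transcription factors of cortical neurons and progenitors had sham-only loops at 5 of 33 listed genes, of which 21 had a sham loop of 21 or more PETs. This was close to the share of 23.5% over all genes with such a loop. Counted as pairs of a gene and such a loop, 7 of 50 were sham-only. Nr2f1 (COUP-TF1), which patterns cortical areas, had 2 with 37 and 23 PETs that reached 1028 and 620 kb into a stretch without a gene end. It had 7 loops in each list, and the strongest MCAO loop had 39 PETs. Mef2c, an activity-dependent factor of neurons, had 1 of 29 PETs that joined it to Ccnh over 1468 kb, beside 10 sham and 7 MCAO loops in all, the strongest MCAO loop with 80 PETs. Sox11, a factor of young neurons, had 1 of 36 PETs, Sox2, a progenitor factor, 1 of 26, and Meis2, a homeobox factor, 2 of 26 and 22. In all Sox11 had 4 loops in each list, Sox2 2 in each, and Meis2 5 sham and 4 MCAO loops. Their strongest MCAO loops had 31, 59 and 45 PETs. The weaker sham-only loop of Meis2 joined the ends of the gene, 209 kb apart. The MCAO loop nearest to it lay 39.2 kb away with 10 PETs, close to the edge of the rule at 2.08 anchor widths.

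Adhesion and guidance genes had sham-only loops of very different reach. Ncam2, a neural cell adhesion molecule, had 1 of 44 PETs over 1985 kb, and the nearest MCAO loop, of 11 PETs, was 949 kb away, although 7 sham and 4 MCAO loops stood at its ends. Epha4, an ephrin receptor of axon guidance, had 1 of 44 PETs over 1558 kb, with an MCAO loop of 19 PETs at 303 kb. Pcdh17, a protocadherin, had 1 of 22 PETs over 2303 kb. Flrt2, an adhesion and guidance protein, had 2 with 25 and 22 PETs over 1133 and 936 kb, yet 8 sham and 11 MCAO loops in all. Nrcam, Alcam, Unc5c and Plxna2 had 1 each, with 24, 23, 29 and 21 PETs and spans of 118, 565, 348 and 1166 kb. The counts were 4 of 27 synaptic adhesion genes, 1 of 20 cadherins and 4 of 30 guidance genes, of which 13, 9 and 21 had a sham loop of 21 or more PETs. The share over all genes with such a loop was 23.5%.

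Few genes of the response to activity and stress had a sham loop of 21 or more PETs at all: 6 immediate early genes, 1 of hypoxia and heat shock, 3 of cell death and inflammation and 1 of chromatin architecture. With a sham-only loop, Fosb and Nr4a2 were found among 17 immediate early genes, Hspa8 among 20 genes of hypoxia and heat shock, Icam1 among 14 of cell death and inflammation, and none among 10 of chromatin architecture. Over all genes with a sham loop of 21 or more PETs the share was 23.5%. The loop at Fosb, an AP-1 subunit induced by activity, was the shortest of the 608 with 45.6 kb and had the highest enrichment in the authors' score, 29. It had 29 PETs and joined Rtn2 and the distal end of Fosb to Ercc1, a DNA repair endonuclease subunit, and the Fosb promoter lay outside its anchors. No MCAO loop stood at the ends of Fosb, and the nearest, of 14 PETs, was 61.4 kb away. The loop at Nr4a2, a nuclear receptor induced by activity, came in 2 lengths, 774 and 480 kb, with 24 and 22 PETs, and Nr4a2 had 3 loops in each list.

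Hspa8, the constitutive heat shock protein of the HSP70 family, had 1 sham loop of 31 PETs over 384 kb and no MCAO loop at its ends, and the nearest MCAO loop, of 12 PETs, was 177 kb away. Icam1, a leukocyte adhesion receptor of vessel walls, had 1 of 21 PETs in an anchor shared with Icam4 and Icam5, and 2 loops in each list. Among marker genes of cell types, 1 of 7 for excitatory neurons had a sham-only loop, the kinase gene Camk2a, with 25 PETs. Camk2a had 2 sham and 3 MCAO loops in all, 2 of the latter with 21 or more PETs. None of 10 inhibitory neuron, 8 astrocyte, 7 oligodendrocyte, 5 microglia, 5 vessel and 5 leukocyte markers had a sham-only loop. Only 3 excitatory neuron, 3 inhibitory neuron, 3 astrocyte, 1 oligodendrocyte and 1 leukocyte marker had a sham loop of 21 or more PETs, so few could have been found.

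The genes with more than 1 sham-only loop included several without any listed MCAO loop. Ccnh, cyclin H of the CDK-activating kinase, had 3 with 31, 29 and 23 PETs, 4 sham loops in all and no MCAO loop. Wdr25 had 4 sham loops, and Pcm1, a scaffold of centriolar satellites, Stx6, a syntaxin of endosomes, and Ano6, a lipid scramblase, had 3 each, again with no MCAO loop listed at an end. Mtmr7, a phosphoinositide phosphatase, and Zfp708, a zinc finger gene, had 2 sham loops and no MCAO loop. Such a zero says only that no loop was listed. B3galt2, a galactosyltransferase, had 2 sham-only loops of 40 and 28 PETs over 1216 and 1692 kb, and 11 sham against 2 MCAO loops in all. The longer one was the farthest of the 608 from any MCAO loop, at 1088 kb.

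Others of the 31 genes with more than 1 sham-only loop had MCAO loops at an end. Ugt8a, the enzyme of galactocerebroside synthesis in myelin, had 2 of 37 and 22 PETs, and the first joined it over 722 kb to Camk2d, a calmodulin-dependent kinase, at 2.22 anchor widths from an MCAO loop of 18 PETs. Gpc6, a glypican, had 2 of 40 and 27 PETs. The first reached its paralogue Gpc5 over 398 kb, and the 2 MCAO loops of Gpc6 both had 21 or more PETs, up to 38. Tmem132d had 2 of 53 and 30 PETs, and its single MCAO loop had 17. Map3k21, a mixed-lineage kinase, had 2 of 27 and 24 PETs against a single MCAO loop of 19, and Ccdc91 had 2 of 34 and 24 PETs against 1 of 11. Rtf2, a replication fork factor, shared 2 of 32 and 23 PETs with its neighbours Gcnt7 and Fam209, and the first led over 503 kb to Bmp7, a bone morphogenetic protein, and Rae1. Zranb1, a deubiquitinase, had 2 of 29 and 22 PETs, and the second, with Edrf1, was 714 kb from any MCAO loop.

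Of the 15 loops with the most PETs, 10 had a gene end at an anchor and 5 had none. The first, with 77 PETs over 652 kb on chromosome 2 (chr2:60702131-61456144), left the stretch of Itgb6, an integrin subunit, and Rbms1, an RNA-binding protein, and the nearest MCAO loop had 10 PETs and lay 454 kb away. A neighbour of 59 PETs, with its left anchor in the gene of Rbms1, overlapped the same right anchor. The second, with 73 PETs, joined Aff3, a transcription elongation factor, to Lonrf2 over 585 kb, and the nearest MCAO loop had 10 PETs at 285 kb. The third, with 61 PETs on chromosome 12, had no gene at either anchor, and its nearest MCAO loop had 31 PETs at 233 kb.

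The fifth was the longest of the first 15, at 2988 kb on chromosome 9. It joined the stretch of Med17, a Mediator subunit, Taf1d and Cep295 to Chordc1, an HSP90 co-chaperone, and Naalad2. It had 59 PETs and an enrichment of 14.8, and the nearest MCAO loop, of 2602 kb and 16 PETs, lay 367 kb away. Others of the first 15 stood at Bmp2, a bone morphogenetic protein (56 PETs), Rttn and Dok6 (55), Tmem132d (53), Rspo2, an enhancer of Wnt signalling, with Emc2 (53), Mmp16, a membrane metalloprotease, with Cngb3 (52) and St6galnac5, a sialyltransferase (51). A loop of 57 PETs had an anchor in the gene of Kcnd3, the potassium channel Kv4.3, and loops of 50 PETs each stood in Esrrg, an orphan nuclear receptor, and Glis3, a zinc finger factor. The Glis3 loop lay at 2.05 anchor widths, just past the edge of the rule, and the Esrrg loop at 5.73.

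Contacts within a single long gene formed a further group. Both anchors overlapped the same gene in 61 sham-only loops (10.0%, interval 7.76 to 12.7), against 8.57% of partnered and 11.4% of MCAO-only loops, with overlapping intervals. These 61 loops lay in 54 genes of a median length of 596 kb, where the rule of 2 anchors in 1 gene favours long genes, and the genes named here were chosen after their values were seen. Epha6, an ephrin receptor, held 3 with 39, 23 and 23 PETs, and Macrod2 held 3 with 30, 21 and 21. Lrrc4c, a netrin-G ligand at synapses, Cntnap2, a contactin-associated protein, and Pcsk5, a proprotein convertase, held 2 each. Single loops lay in Camta1 (47 PETs), Dpp10 (38), Erbb4 (25), a neuregulin receptor, Rbfox1 (22), a splicing regulator, and Lrp1b (22). The Lrp1b loop was 1024 kb from the nearest MCAO loop, and neither of its anchors lay near an MCAO anchor.

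Along the chromosomes 245 sham-only loops (40.3%) lay alone, and 179 (29.4%, interval 25.8 to 33.2) fell into 45 groups of 3 or more when loops within 1 Mb were linked. No share under the same linking is given for partnered or MCAO-only loops, so the grouping is not shown to be particular to sham-only loops. It also varied with the number of loops taken, with 540 of 997 in such groups at a partner distance of 1 anchor width and 79 of 403 at 3 widths. An anchor overlapped that of another sham-only loop in 110 cases (18.1%). The regions of the 45 groups held a median of 2.73 protein-coding genes per Mb, against 8.40 over the autosomes. Low gene numbers were shared by sham loops of 21 or more PETs in general, with a median of 3 genes in the 1 Mb around their centres. They held 925 sham and 638 MCAO loops of any PET number, a ratio of 0.690, and 0.855 once the sham-only loops themselves were left out, against 1.06 over all autosomal loops. In 35 of the 45 regions fewer MCAO than sham loops were listed. The regions were chosen for loops missing from MCAO, their edges are those of sham-only loops, and a loop was counted with both midpoints inside, so the sham list is favoured and the imbalance is a description.

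**Figure D4:**
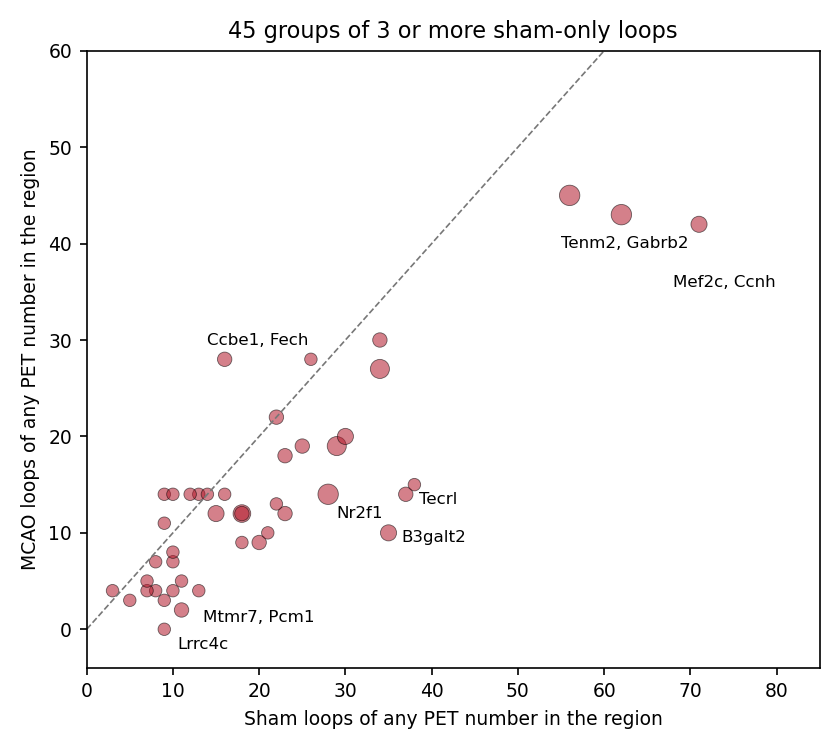
Number of sham loops (x axis) and MCAO loops (y axis) of any PET number in each of the 45 regions with 3 or more sham-only loops. Point area grows with the number of sham-only loops, the dashed line marks equal numbers, and 35 regions lie below it. The Lrrc4c region lies at 9 and 0, although 7 MCAO loops stand at the ends of that gene. The Ccbe1 and Fech region lies at 16 and 28.

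The largest groups had 8 sham-only loops each. The first ran over 5.92 Mb of chromosome 11 from Tenm2, a teneurin adhesion protein of synapses, to Gabrb2, and held 62 sham and 43 MCAO loops, or 20 and 9 with 21 or more PETs. Of its 20 well supported sham loops 12 had a partner, and the 8 sham-only loops had 22 to 44 PETs. The second surrounded Nr2f1, Mctp1 and Slf1 over 2.97 Mb of chromosome 13, with 28 sham and 14 MCAO loops. There 3 of 11 sham loops with 21 or more PETs had a partner, and 5 of the 8 sham-only loops, with 22 to 30 PETs, had their left anchor midpoint in the gene of Mctp1, a membrane protein with C2 domains. The third, on chromosome 2 near Otor, Esf1 and Ndufaf5, held 56 and 45.

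Groups of 7 stood on chromosome 3 in 2 places. Around Plppr4, a phospholipid phosphatase-related protein of synapses, Ptbp2, a neuronal splicing regulator, and Snx7, the 7 had 21 to 37 PETs among 29 sham and 19 MCAO loops, or 8 and 3 with 21 or more PETs. Around Camk2d, Ugt8a and the heparan sulfate sulfotransferases Ndst3 and Ndst4, they stood among 34 and 27. A group of 6 near Arl6, Crybg3 and Riox2 on chromosome 16 had up to 39 PETs among 18 and 12 loops. At the receptor genes P2ry14 and Sucnr1 a group of 5 had 21 to 31 PETs among 30 and 20 loops, or 10 and 2 with 21 or more PETs. Groups of 4 around Slitrk5, a synapse-organising protein, and Flrt2 lay in nearly empty regions of 0.359 and 0.272 genes per Mb, with 18 and 25 sham loops against 12 and 19 MCAO loops.

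**Figure D5:**
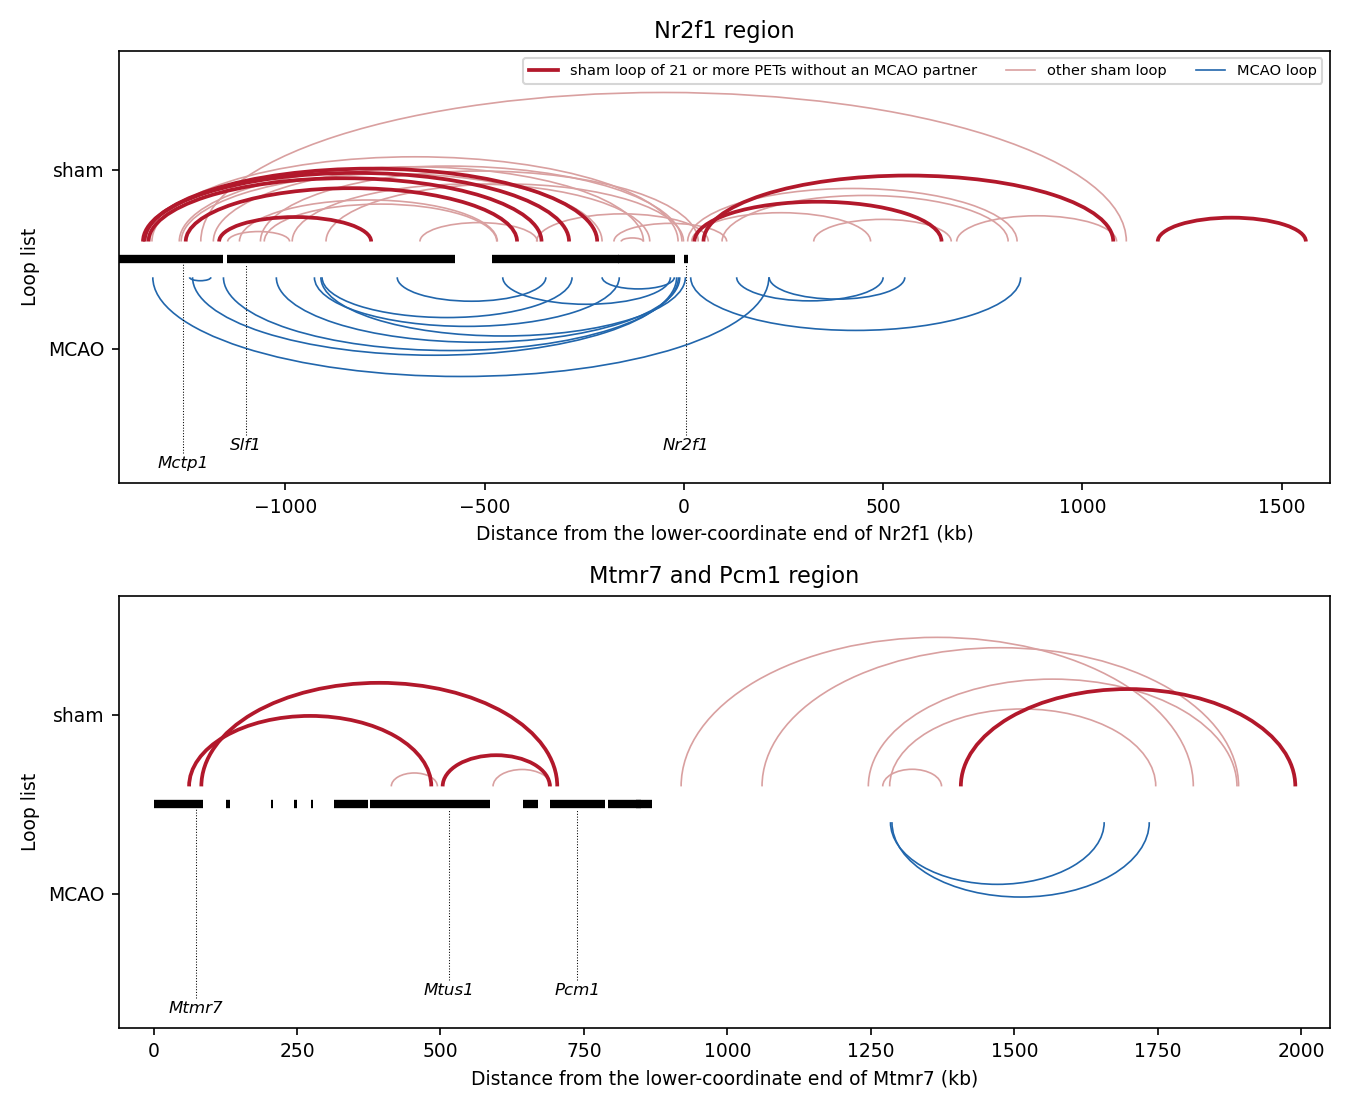
Loops with both anchor midpoints inside the Nr2f1 region (top) and the Mtmr7 and Pcm1 region (bottom), with x as distance in kb from the lower-coordinate end of Nr2f1 or Mtmr7. Arcs above are sham loops (thick red, sham-only), arcs below MCAO loops, arc height grows with span, and black bars are protein-coding genes. The top holds 28 sham and 14 MCAO loops, the bottom 11 and 2.

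Further groups ranged more widely. Around B3galt2 and Cdc73, a subunit of the PAF1 elongation complex, 5 sham-only loops stood among 35 sham and 10 MCAO loops. Around Mef2c, Ccnh and Rasa1, a Ras GTPase-activating protein, 5 stood among 71 and 42. At Tecrl 4 stood among 37 and 14. At Mtmr7 and Pcm1 on chromosome 8, 4 sham-only loops with 47, 27, 26 and 23 PETs stood among 11 sham and 2 MCAO loops, and no anchor of these 4 lay within 2 widths of an MCAO anchor. They formed a chain in which Mtmr7 met Mtus1, Mtmr7 met Pcm1 and Mtus1 met Pcm1, with the fourth further on. At Lrrc4c 3 stood among 9 sham loops in a region of 1.29 Mb that ends inside that single gene. No MCAO loop had both midpoints in the region, although at least 1 anchor of each of the 3 lay near an MCAO anchor. At the ends of Lrrc4c itself 6 sham and 7 MCAO loops were listed. Of these MCAO loops 4 had 21 or more PETs, up to 40.

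The gap was not general. In 10 of the 45 regions the MCAO list had as many loops as the sham list or more, as on chromosome 18 around Ccbe1, Fech and Nars, where 16 sham and 28 MCAO loops were listed beside 4 sham-only loops. At Nampt, Cog5 and Gpr22 on chromosome 12 both lists had 22 loops. At Nr4a2 fewer MCAO than sham loops were listed, 12 against 15, beside 5 sham-only loops of 21 to 24 PETs. The same direction was seen in the most gene-rich of the 45 regions, the zinc finger gene group of chromosome 13. It held 31.8 genes per Mb, and 3 sham-only loops stood among 7 sham and 4 MCAO loops. A loop of 45 PETs joined Zfp708 and Zfp759 to Zfp738, Zfp65 and Zfp85 over 602 kb, a loop of 21 PETs joined the same left genes to Zfp493 and Zfp273 over 709 kb, and a loop of 22 PETs reached Zfp459 and Zfp874a from Uqcrb and Ptdss1 over 525 kb.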

How the data were processed

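The members and gene lists were chosen with earlier results of these data known, so no list is independent support. The submitters' processing notes name HiC-Pro, Bowtie2 and mm10 without versions, and a kit from Arima was used per the labels' protocols. The loop caller is not given in the sources used here. Whether the 3 cortices of a group were pooled is not stated. PET and anchor read counts were deposited by the authors as unscaled whole numbers. The signal column, a density per kb of anchor and 1000000 PETs, was deposited by the authors and gave the library totals. The enrichment ratio and the p-values are the authors' deposited values, with definitions not stated, and served to describe and rank loops.

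Loops were matched between lists by anchor midpoints with Python 3.11.15, pandas 2.3.3, NumPy 2.4.6 and SciPy 1.17.1, and coordinates are as deposited. Groups were taken from the sample titles. Genes came from a RefSeq table of GRCm38.p6, the assembly of mm10, and promoters from a RefSeq table; those of chromosome 18 were not analysed here. Genes named are those at the 15 loops with the most PETs, those with 2 or more sham-only loops, those at groups of 3 or more, and list members with such a loop; genes within which both anchors lie were added after their values were seen. Of these the text gives examples, and some are not reported here. Shares have exact Clopper-Pearson intervals and medians exact binomial ones. With 1 library per group no p-value was computed between groups. The matching and grouping were tested on simulated data. Alternatives covered the partner distance, the PET minimum, the authors' hypergeometric p-values, the X chromosome, the gene window and the linking distance; loops of like width or PETs, promoter windows, overlapping anchors and partners of 21 or more PETs were added after seeing the data.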

Additional observations from a re-analysis of the deposited data

How the results depend on the processing

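Of 54 recomputed values 28 stayed within the interval of the main value or within 1.5 times its count, and 26 did not. The number of loops followed the rule: 997 with a partner distance of 1 anchor width, 403 with 3 widths, 1050 with a fixed 50 kb, 1095 with at least 18 PETs, 329 with at least 25, 1092 when a partner needed only overlapping anchors, and 1329 when it needed 21 PETs itself. Loops in groups of 3 or more numbered 540, 79, 612, 539 and 40 under the first 5 of these, and 303 with a linking distance of 2 Mb. The share at a gene end moved to 58.3% at 1 width, 59.2% at 50 kb, 48.8% for anchors of 40 to 60 kb and 73.4% for any part of a gene. The median span moved to 502 kb at 1 width, 535 kb at 50 kb and 430 kb with 18 PETs. The median distance to the nearest MCAO loop moved to 138 kb at 1 width, 248 kb at 3 widths, 133 kb at 50 kb and 257 kb as the sum of both distances. The share with an anchor used in MCAO was 98.2% at 50 kb and 86.0% by overlap. The causes of these shifts were not tested beyond what each rule fixes. In the 9 settings where both were computed, the share at a gene end was lower for sham-only than for partnered loops, by 15.5 to 20.7 percentage points. No paired analysis was possible because each group has 1 library. A loop that is not listed may have had fewer than 10 PETs or missed another limit of the caller.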

Other observations

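Among the longest sham-only loops, several had a gene end at a single anchor or at none. The longest spanned 3108 kb on chromosome 4 with 28 PETs and no gene end at either anchor, and an MCAO loop of 13 PETs lay 198 kb away. A loop of 2974 kb on chromosome 13, with 23 PETs and an enrichment of 11.5, began at Cetn3, a centrin, and was 1030 kb from any MCAO loop. Lrrn3 and Lrfn5, leucine-rich repeat proteins of neurons, stood at loops of 2332 and 2116 kb with 24 and 22 PETs, and Tusc3, a subunit of the oligosaccharyltransferase complex, at one of 1904 kb with 46 PETs, whose nearest MCAO loop had 10 PETs and lay 787 kb away.

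Beside the 4 loops near Mtmr7 and Pcm1, the loops without a nearby MCAO anchor at either side included one at Ano6 (25 PETs), one joining Morn2 and Arhgef33 to Sos1, a Ras exchange factor (22 PETs, 87.8 kb), one in Slc4a4, a sodium bicarbonate transporter (22 PETs), and one at Gpr149 (23 PETs). These genes were chosen after their values were seen.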
